A study of Homo sapiens with 6 samples.

Results

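The genes described here encode heat shock proteins and their helpers: 25 of the 14884 genes for which an array value could be tied to 1 gene name. They were chosen by a rule on gene symbols, set with earlier results of these data known. The rule took names that start with HSPA, HSPB, HSPD, HSPE, HSPH, HSP90 or DNAJ, or with CCT or BAG and a digit. It also took TCP1, HSF1, HSF2, STIP1 and AHSA1, and left out pseudogenes and antisense names. The 25 comprise 12 genes of the HSP70 family, 5 BAG genes, 3 small heat shock protein genes, HSPD1, HSF1, STIP1, HSPBAP1 and the non-coding readthrough transcript HSPB2-C11orf52. The rule dropped 3 further symbols, the pseudogene HSPA7 and the antisense RNAs DNAJC9-AS1 and DNAJC27-AS1. The same rule finds 95 protein-coding genes in the RefSeq gene table, of which 24 were measured here under a gene name. The other 71 were not analysed here. Among them are the genes with symbols that start with HSP90, all coding DNAJ, CCT and TCP1 genes, and HSPA5, HSPA8, HSPE1, HSF2 and AHSA1. What follows is therefore mainly an account of the HSP70 system and not of J-domain proteins or the cytosolic chaperonin.

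The cells were THP-1, an established line grown from a human acute monocytic leukaemia, and their RNA was hybridised to Affymetrix Human Gene ST arrays. One group of 3 arrays came from cells carrying a lentiviral psi-LVRU6GP vector with a short hairpin RNA against RKIP, the Raf kinase inhibitor protein encoded by PEBP1, and the other group of 3 from cells carrying the empty vector. Both groups were selected and kept in 1.5 µg/mL puromycin. The control carries no hairpin. Sample titles call every array a biological replicate. It is not stated if each replicate had its own transduction, so part of the spread behind each p-value may still be technical. The targeted gene PEBP1 stood at 9.68 ± 0.14 in control and 8.22 ± 0.04 in RKIP shRNA arrays (log2 level, mean ± SD, n = 3 each), which left 36.4% of the control level. An exact two-sided permutation test of PEBP1 alone gave p = 0.10, the smallest that 3 arrays against 3 allow. Of 7 measured monocytic markers, LYZ rose by 2.55 on the log2 scale, SPI1 by 0.49, CD68 by 0.37 and MPO by 0.26. CD4 fell (log2 change -0.35), CD14 was below the median of all rows in both groups, and CSF1R did not pass. Among markers of other cell types, CD5 of 2 measured T cell markers rose by 0.39, KRT18 of 4 epithelial markers fell by 0.29, and KLF1, the 1 erythroid marker measured, did not pass. Their part in the results below was not tested.

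HSP70 proteins bind exposed hydrophobic stretches of other proteins and release them in a cycle driven by ATP. J-domain proteins start that cycle, whereas BAG proteins and the HSP110 relatives of HSP70 exchange the nucleotide that ends it. STIP1, also called HOP, passes clients from HSP70 to HSP90. Many of these genes are transcribed at a basal rate and are induced by the transcription factor HSF1, which binds heat shock elements, inverted repeats of the letters GAA in promoters. Leukaemic cells are known to depend on this machinery for the folding of signalling proteins.

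Knockdown cells had higher levels of 9 of the 25 genes and lower levels of 0, at a limma adjusted p under 0.05 with the adjustment over all 14884 genes. That is 36% higher, where 10.0% of all genes were called higher and 10.2% lower. The 9 were HSPH1, HSPA1A, HSPA1B, HSPA14, HSPA4L, HSPB1, STIP1, BAG4 and BAG1. At an unadjusted limma p under 0.05, 13 of the 25 were higher and 0 were lower, against 16.8% and 15.5% of all genes. An ordinary t statistic with the same adjustment called 9 higher and 0 lower, against 8.38% and 8.10% of all genes, but not the same 9: HSPA14 was lost (adjusted p = 0.0628) and BAG2 gained (adjusted p = 0.0329). HSPA1A and HSPA1B are near-identical copies, so the same data may also be read as 8 signals among 24. The median log2 change of the 25 genes was 0.21 against 0.02 for all genes, and 19 of the 25 had a change above 0, against 54.2% of all genes. The 3 RKIP shRNA arrays all lay above the 3 control arrays for 16 of the 25 genes (64.0%), against 19.8% of all genes, and below them for 1 gene, HSPB2-C11orf52 (4%, against 18.1%).

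The changes were modest. They ran from -0.13 to 0.91 on the log2 scale, and 5 of the 25 genes (20.0%) were called with a rise of at least 0.5, against 3.72% of all genes. All 9 called genes were among the 20 whose mean level reached the median of all rows, 4.08, where 14.5% of all genes were called higher. The 5 genes below that median, HSPA2, BAG3, HSPB8, HSPB3 and HSPB2-C11orf52, are called dim here, because background can compress changes at low signal. Whether it did so for these genes was not tested. No detection call was used, so whether dim genes are expressed at all is unknown here. Of the 9 calls, 7 held under every alternative processing and with each array left out in turn. HSPA14 and HSPA4L did not, as described with their values.

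**Figure D1:**
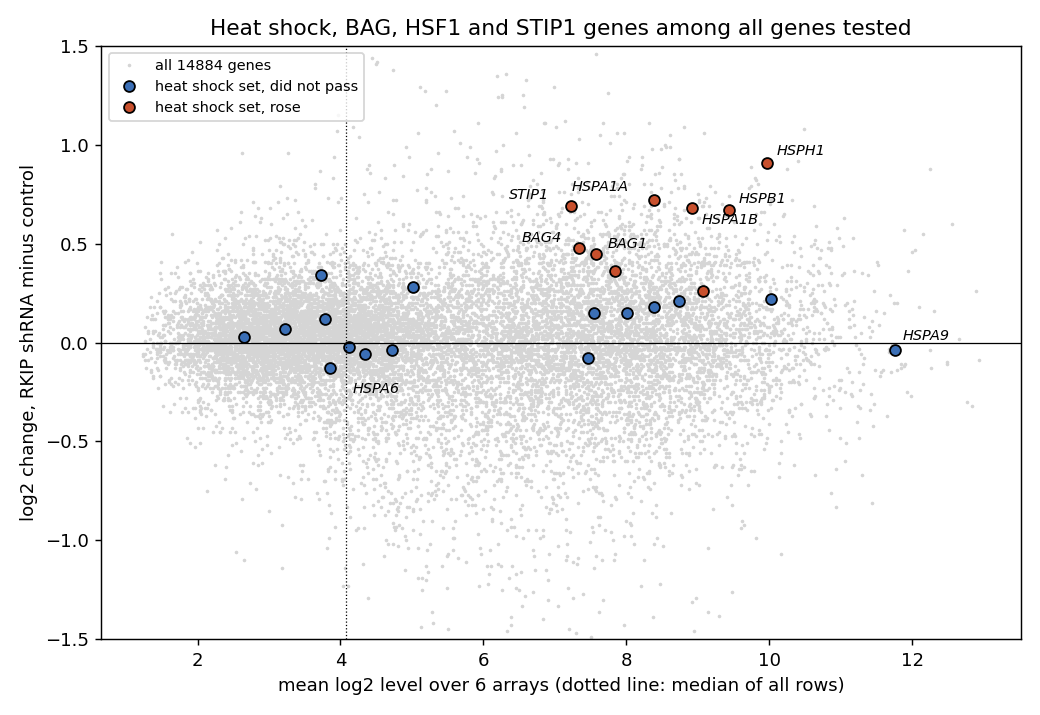
Each point is a gene, placed by its mean log2 level over 6 arrays (horizontal axis) and its log2 change, RKIP shRNA minus control (vertical axis). Grey points are all genes tested, of which 43 lie beyond the plotted range of changes; red points are the 9 called genes, between 0.26 and 0.91, and blue points the 16 that did not pass, between -0.13 and 0.34. The dotted line marks the median of all rows, 4.08.

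The sequences that open the gene-by-gene account are promoter windows of some genes that rose and of stress genes that did not pass. Every window shown holds a match, and where a gene has several starts the one with the most matches is shown. The first starts of STIP1 and HSPD1 held no match and are not shown, so the display does not represent all windows. Windows of 300 bases, from 250 before to 50 after an annotated start, were taken from RefSeq (GRCh38.p14) and matched 20 of the 25 genes by symbol, with 26 windows because 5 genes have several starts. A heat shock element pair was searched as GAANNTTC or TTCNNGAA and a triple as such a pair extended by the next GAA or TTC unit, alternating and at the same spacing. Each pair reads the same on both strands, the triple that starts with GAA is the reverse complement of the one that starts with TTC, and every triple also contains pairs. Capitals mark all matches, and lines run 5′ to 3′ on the strand of the gene.
HSPA1A (chr6:31815293-31815592, plus strand): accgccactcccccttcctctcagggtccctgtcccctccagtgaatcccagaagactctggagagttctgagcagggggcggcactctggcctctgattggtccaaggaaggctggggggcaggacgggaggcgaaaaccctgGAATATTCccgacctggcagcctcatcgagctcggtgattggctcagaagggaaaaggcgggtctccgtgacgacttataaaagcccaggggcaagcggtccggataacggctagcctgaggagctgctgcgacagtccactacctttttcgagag
HSPA1B (chr6:31827488-31827787, plus strand): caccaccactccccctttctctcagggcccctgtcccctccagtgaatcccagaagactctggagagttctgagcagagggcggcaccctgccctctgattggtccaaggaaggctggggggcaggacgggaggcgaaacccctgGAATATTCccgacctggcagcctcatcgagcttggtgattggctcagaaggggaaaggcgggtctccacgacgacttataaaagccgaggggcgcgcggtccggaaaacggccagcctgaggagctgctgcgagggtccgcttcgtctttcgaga
HSPB1 (chr7:76302423-76302722, plus strand): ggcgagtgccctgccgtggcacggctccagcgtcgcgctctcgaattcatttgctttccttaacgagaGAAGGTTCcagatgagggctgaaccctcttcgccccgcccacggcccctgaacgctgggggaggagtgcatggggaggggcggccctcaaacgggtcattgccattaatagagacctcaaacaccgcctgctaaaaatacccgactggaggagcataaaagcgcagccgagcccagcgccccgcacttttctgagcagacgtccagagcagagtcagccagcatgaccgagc
STIP1 (chr11:64185921-64186220, plus strand): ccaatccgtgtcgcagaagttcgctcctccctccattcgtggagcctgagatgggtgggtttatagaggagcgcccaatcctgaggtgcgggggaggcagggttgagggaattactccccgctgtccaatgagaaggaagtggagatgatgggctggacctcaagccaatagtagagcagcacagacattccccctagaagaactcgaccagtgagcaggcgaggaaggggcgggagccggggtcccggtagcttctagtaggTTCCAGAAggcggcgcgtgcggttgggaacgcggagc
HSPD1 (chr2:197499791-197500090, minus strand): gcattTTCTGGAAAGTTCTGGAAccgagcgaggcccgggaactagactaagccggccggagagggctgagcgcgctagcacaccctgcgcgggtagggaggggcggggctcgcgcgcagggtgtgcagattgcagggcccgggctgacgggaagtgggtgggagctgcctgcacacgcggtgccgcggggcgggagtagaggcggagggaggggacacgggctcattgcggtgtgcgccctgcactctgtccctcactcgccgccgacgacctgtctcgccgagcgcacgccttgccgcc
HSPA6 (chr1:161524290-161524589, plus strand): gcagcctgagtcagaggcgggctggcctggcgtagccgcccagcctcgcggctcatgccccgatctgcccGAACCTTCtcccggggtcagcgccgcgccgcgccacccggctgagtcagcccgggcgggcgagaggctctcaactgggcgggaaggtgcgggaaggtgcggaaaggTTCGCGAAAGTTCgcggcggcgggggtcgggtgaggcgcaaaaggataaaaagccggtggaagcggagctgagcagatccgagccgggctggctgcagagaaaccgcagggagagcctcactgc

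The HSPA1A and HSPA1B windows held the same match, GAATATTC, starting 106 and 105 bases before the gene start, and were 92% identical over a global alignment. HSPA1L is transcribed from the opposite strand, its window shares 241 bases with that of HSPA1A, and its match at chr6:31815437-31815444 is the same site. HSPB1 held a pair starting 182 bases before its start and STIP1 a pair starting 13 bases after the second of its annotated starts. HSPA6 held 3 pairs and 1 triple, and the second start of HSPD1 held 3 pairs and 2 triples. At least 1 pair was found in 12 of the 26 windows (46.2%), against 13.5% of all 35116 windows, and a triple in 2 (7.69%), against 0.490%. By gene, 5 of 7 called genes with a window and 7 of 13 that did not pass held a pair, against 16.2% of all 27305 genes with a window. The 2 genes with a triple, HSPA6 and HSPD1, did not pass the expression test. HSPH1 and BAG1 held no match in this window. These matches describe letters in a window and do not show binding.

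**Figure D2:**
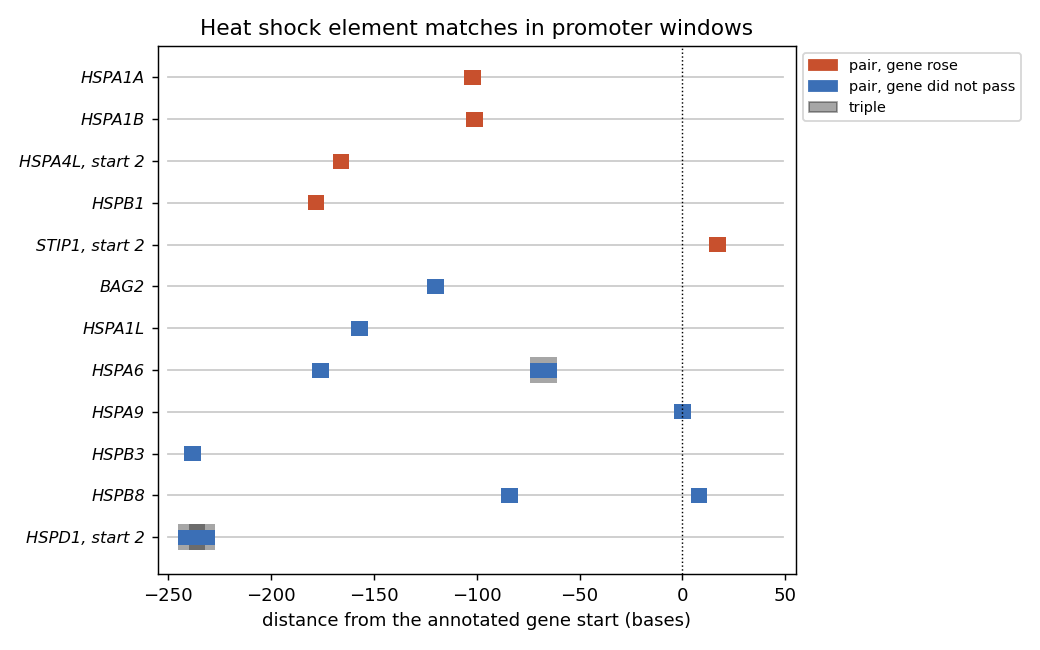
Each line is the promoter window of a gene that held at least 1 match, drawn by distance from its annotated start in bases. Boxes mark pairs in red for genes that rose and blue for genes that did not pass, and grey boxes mark triples, which occur in HSPA6 and at the second start of HSPD1.

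The HSP70 family held 12 measured genes, of which 5 rose and 7 did not pass, where 10.0% of all genes were called higher. The 5 include the near-identical copies HSPA1A and HSPA1B as separate genes. The median log2 change of the family was 0.27, against 0.02 for all genes. HSPH1, an HSP110 protein that exchanges the nucleotide of HSP70 and helps to dissolve aggregates, changed most. Its log2 levels were 9.45, 9.53 and 9.56 in the control arrays and 10.46, 10.33 and 10.49 in the RKIP shRNA arrays. All 3 RKIP shRNA arrays were high and the gap between the groups was wider than the spread within either. The rise was 0.91 (SE 0.07, adjusted p = 0.000571), or 1.88-fold with a 95% interval from 1.67 to 2.13, and 0.591% of all genes rose more.

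HSPA1A encodes the stress-inducible cytosolic HSP70. Its log2 levels were 7.95, 8.13 and 8.0 in control and 8.73, 8.76 and 8.74 in RKIP shRNA arrays, a rise of 0.72 (SE 0.07, adjusted p = 0.00107) or 1.65-fold. The neighbouring gene HSPA1B is its near-identical copy, with log2 levels of 8.57, 8.63 and 8.52 against 9.20, 9.23 and 9.34. It rose by 0.68 (SE 0.07, adjusted p = 0.00126) or 1.6-fold. The groups were well apart for both genes, and the RKIP shRNA arrays of HSPA1A differed from each other by only hundredths of a log2 unit.

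Because these copies share sequence, every deposited row named for them was examined. HSPA1A had 5 rows, of which 3 carried the same 6 values and so are no separate measurements. Its log2 changes ran from 0.72 to 0.76 over the 5 rows. HSPA1B had 5 rows with different values and changes from 0.68 to 0.74. All 10 rows were called higher when the adjustment ran over all 53617 rows, with adjusted p from 0.00462 to 0.00624. Because the copies share sequence, these rows may read the same transcripts, so the 10 calls are not independent. No value here separates transcripts of HSPA1A from those of HSPA1B. HSPA1L, the third gene of this cluster, encodes a closely related HSP70 known mainly from testis, and its log2 levels were 4.76, 5.09 and 4.79 in control and 5.11, 5.20 and 5.18 in RKIP shRNA arrays. The groups did not overlap, but control replicate 2 came close to the RKIP shRNA arrays. Its change of 0.28 (SE 0.10) did not pass (adjusted p = 0.105), and without control replicate 2 it was 0.39 with an adjusted p of 0.0292. Over its 5 rows, again with 3 identical, the change ran from 0.24 to 0.35, and none was called in that fit.

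**Figure D3:**
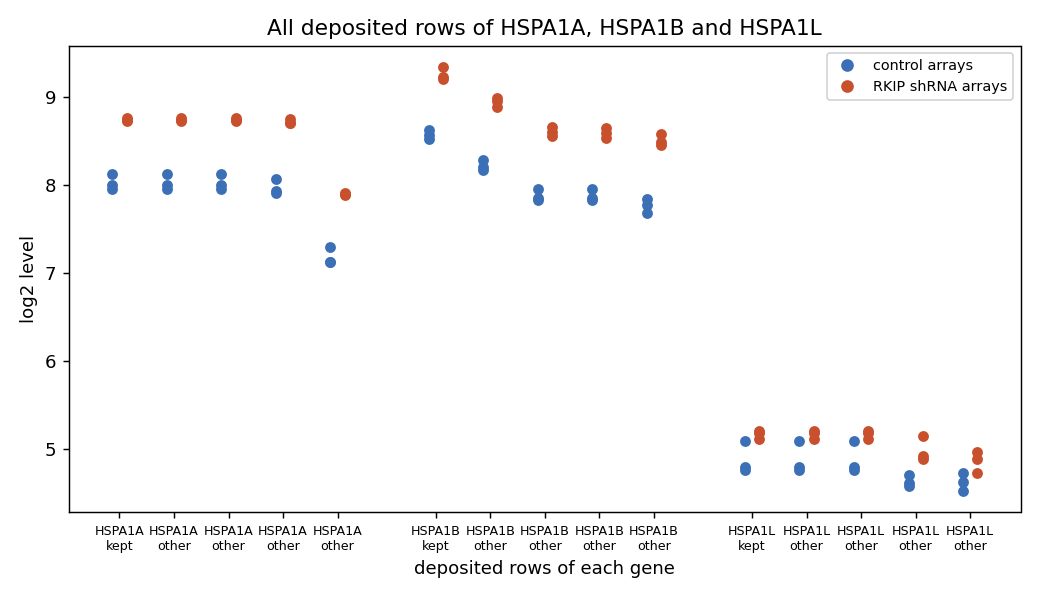
Log2 levels of every deposited row of HSPA1A, HSPA1B and HSPA1L, with 3 control arrays in blue and 3 RKIP shRNA arrays in red; the row kept for each gene is marked. All RKIP shRNA arrays lie above all control arrays in each of the 10 rows of HSPA1A and HSPA1B, and 3 rows of HSPA1A and 3 of HSPA1L hold identical values.

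HSPA14, an HSP70 relative that works with a J-domain protein at the ribosome, had log2 levels of 7.58, 7.78 and 7.62 in control and 8.08, 7.91 and 8.07 in RKIP shRNA arrays. The groups did not overlap, with control replicate 2 the highest control and RKIP shRNA replicate 2 the lowest RKIP shRNA array. It rose by 0.36 (SE 0.09, adjusted p = 0.0258). That call was lost without control replicate 1, control replicate 3, RKIP shRNA replicate 1 or RKIP shRNA replicate 3, with adjusted p up to 0.0884. With all arrays kept, it was also lost with all rows tested (adjusted p = 0.0776) and with an ordinary t statistic (adjusted p = 0.0628). A block for the replicate number and a threshold of 0.01 removed it too.

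HSPA4L and HSPA4 are 2 further HSP110 proteins, and both lay higher in the RKIP shRNA arrays by a small step. HSPA4L was at 9.0, 8.87 and 8.93 in control and at 9.25, 9.18 and 9.16 in RKIP shRNA arrays (log2 levels). Its rise of 0.26 (SE 0.07, adjusted p = 0.0368) was lost with any 1 array left out, with adjusted p up to 0.123. With all arrays kept, the call was also lost under quantile normalisation (adjusted p = 0.0601) and with all rows tested (adjusted p = 0.117). A block for the replicate number and a threshold of 0.01 removed it too. HSPA4 had log2 levels of 8.60, 8.65 and 8.66 against 8.80, 8.76 and 8.97, without overlap, and its change of 0.21 (SE 0.08) did not pass (adjusted p = 0.113). The log2 changes of the HSP110 genes were 0.91 for HSPH1 with a 95% interval from 0.74 to 1.09, 0.26 for HSPA4L with one from 0.10 to 0.43, and 0.21 for HSPA4 with one from 0.02 to 0.39. No test of these differences between genes was made.

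The other HSP70 genes did not pass. HSPA6 encodes an HSP70 that is known to appear almost only under strong stress, and its log2 levels of 4.16, 4.06 and 4.16 in control and 4.05, 4.07 and 4.20 in RKIP shRNA arrays overlapped near the median of all rows. Its change was -0.02 with a 95% interval from -0.19 to 0.16. HSPA9, the mitochondrial HSP70, was at 11.77, 11.79 and 11.79 in control and 11.78, 11.72 and 11.73 in RKIP shRNA arrays, a change of -0.04 with an interval from -0.18 to 0.11. HSPA2, a testis HSP70, was dim in both groups and had a change of 0.34 (adjusted p = 0.0965). The distant relatives HSPA12A and HSPA12B had changes of -0.06 and -0.04, and the rows of HSPA12A gave -0.06 and 0.12.

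HSPB1, the small heat shock protein that holds unfolding proteins without using ATP, rose with little spread. Its log2 levels were 9.10, 9.11 and 9.10 in control and 9.74, 9.78 and 9.80 in RKIP shRNA arrays. The control arrays were almost equal and all RKIP shRNA arrays lay clearly above them. The rise was 0.67 (SE 0.06, adjusted p = 0.000813), or 1.59-fold with a 95% interval from 1.44 to 1.76. The other measured small heat shock genes, HSPB8, the partner of BAG3, and HSPB3, known from muscle, were dim in both groups with overlapping arrays and changes of 0.07 and 0.03. HSPBAP1, named for its binding to HSPB1, had a change of -0.08 (adjusted p = 0.492), and the dim transcript HSPB2-C11orf52 one of -0.13 (adjusted p = 0.268).

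**Figure D4:**
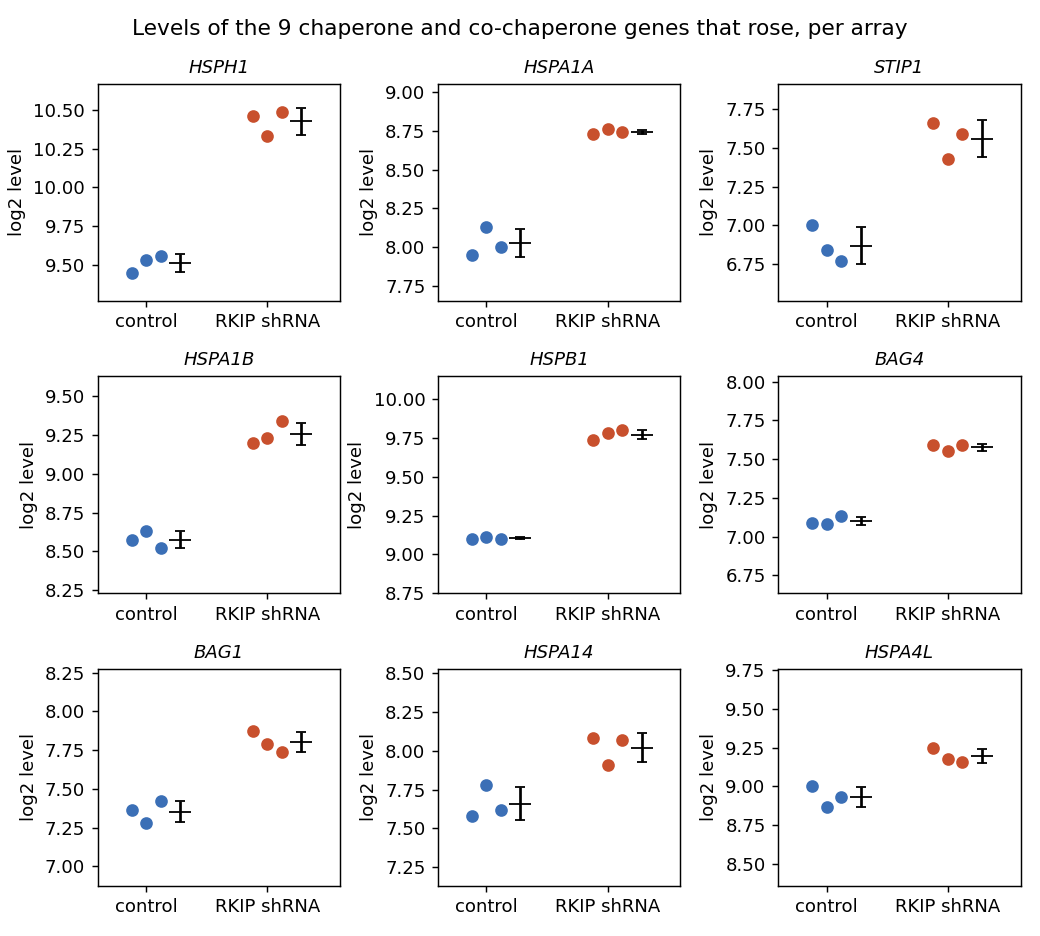
Log2 level on each array for the 9 genes called higher, with 3 control arrays in blue, 3 RKIP shRNA arrays in red and black bars for the mean ± SD. Every panel spans the same range of log2 units, so the step from 0.91 in HSPH1 to 0.26 in HSPA4L can be compared by eye; the groups do not overlap in any panel.

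HSPD1, the HSP60 chaperonin of mitochondria, had log2 levels of 9.88, 9.94 and 9.90 in control and 10.03, 10.01 and 10.35 in RKIP shRNA arrays. The groups did not overlap, but RKIP shRNA replicate 3 stood well above the other two. The change of 0.22 (SE 0.10) did not pass (adjusted p = 0.192), and leaving out single arrays gave changes from 0.11 to 0.29. HSPA9, the other mitochondrial chaperone among the 25 genes, was not called either.

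STIP1, which joins HSP70 to HSP90, had log2 levels of 7.0, 6.84 and 6.77 in control and 7.66, 7.43 and 7.59 in RKIP shRNA arrays. The lowest RKIP shRNA array lay above the highest control array. It rose by 0.69 (SE 0.09, adjusted p = 0.00334), or 1.61-fold with a 95% interval from 1.38 to 1.88. HSF1, the transcription factor of the heat shock response, was at 7.37, 7.54 and 7.51 against 7.58, 7.72 and 7.59. These groups were separated by a narrow gap, and the change of 0.15 (SE 0.08) did not pass (adjusted p = 0.23). HSF1 is known to be controlled mainly at the protein level, which these arrays do not measure.

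All 5 BAG genes had positive changes, where 54.2% of all genes had a change above 0. Of the 5, 2 passed, where 10.0% of all genes were called higher. BAG4, known for silencing death domain receptors, had log2 levels of 7.09, 7.08 and 7.13 in control and 7.59, 7.55 and 7.59 in RKIP shRNA arrays. BAG1, which binds HSP70 and the survival protein BCL2, was at 7.36, 7.28 and 7.42 against 7.87, 7.79 and 7.74. Both groups were tight and apart for both genes, with rises of 0.48 for BAG4 (SE 0.06, adjusted p = 0.00274) and 0.45 for BAG1 (SE 0.07, adjusted p = 0.00628). BAG2, an inhibitor of the ubiquitin ligase CHIP, had a change of 0.18 and did not pass (adjusted p = 0.0984). BAG5 had a change of 0.15 and did not pass either (adjusted p = 0.23), with RKIP shRNA replicate 2 at 7.97 next to control replicate 2 at 7.96. BAG3, which directs HSP70 clients to autophagy and is itself a known HSF1 target, was dim in both groups with overlapping arrays and a change of 0.12.

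**Figure D5:**
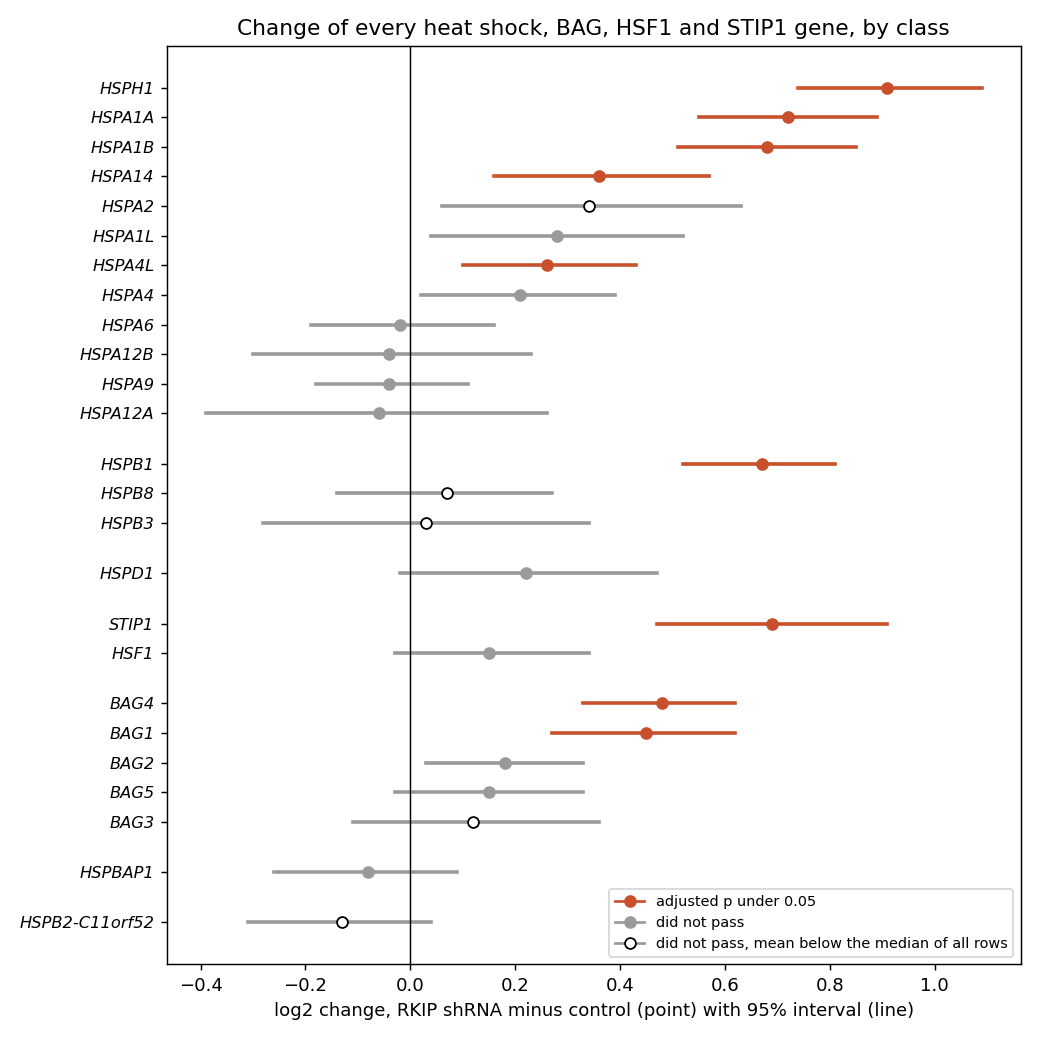
Log2 change, RKIP shRNA minus control, of all 25 genes with its 95% interval from limma, from the HSP70 family at the top to small heat shock proteins, HSPD1, STIP1 and HSF1, BAG genes, HSPBAP1 and HSPB2-C11orf52. Red marks the 9 genes with an adjusted p under 0.05, and open circles the 5 whose mean lies below the median of all rows.

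The 9 called genes were chosen by this contrast, so their values by array are a description. Relative to the control means, the median deviation of the 9 genes was 0.63, 0.56 and 0.69 on the RKIP shRNA arrays and between -0.01 and 0.00 on the control arrays. The smallest deviation of any called gene on a RKIP shRNA array was 0.23. Over all 25 genes the medians were 0.17, 0.21 and 0.25 on the RKIP shRNA arrays, where all genes had medians of 0.01 to 0.03. The highest of the 6 arrays was RKIP shRNA replicate 1 for 5 of the 9 genes, replicate 3 for 3 and replicate 2 for 1.

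The wider chaperone network was read from 6 lists, with 61 measured genes besides these 25, of which 17 rose, 2 fell and 42 did not pass, where 10.0% of all genes were called higher, 14.5% among those at or above the median level, and 10.2% lower. Their median log2 change was 0.14, against 0.02 for all genes. These shares are the background of each list, and a count near them is no result about that list. The most calls were in the list of prefoldin subunits, helpers of the cytosolic chaperonin and tubulin folding cofactors. There 7 of 15 genes rose and 1 fell, against 10.0% and 10.2% of all genes, with a median of 0.26. PDCL3, a phosducin-like helper of the chaperonin, rose by 0.80, the tubulin folding cofactor TBCB by 0.57 and PDRG1, of the prefoldin-like complex, by 0.56. These 3 kept their calls with each array left out, whereas PFDN6, VBP1, TBCD, PFDN1 and the falling TBCC did not. The count of rises was 3 without control replicate 2, control replicate 3 or RKIP shRNA replicate 1, and 4 without RKIP shRNA replicate 2.

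The HSP90 co-chaperone list held 11 measured genes, of which 2 rose, 0 fell and 9 did not pass. That count is near the 14.5% called higher among genes at or above the median level. TRAP1, the mitochondrial HSP90 itself, was in this list and in the mitochondrial one, and did not pass (log2 change -0.02). PTGES3, CHORDC1, PPID and CACYBP were in this list and in that of other HSF1-induced genes. UBQLN1 was in the latter list and among the HSP70 co-chaperones. None of these shared genes passed, and the total of 61 counts each of them once. TOMM34, which binds HSP70 and HSP90 on the way to mitochondria, rose by 0.63 (adjusted p = 0.00130) and NUDC by 0.46 (adjusted p = 0.00385), while the p23 gene PTGES3 and CDC37 did not pass. Of 5 HSP70 co-chaperones and ubiquitin-linked genes, UBQLN2 rose by 0.27, a call lost with any 1 array left out, and 4 did not pass. Of 11 genes of mitochondrial protein quality control 3 rose, against 10.0% of all genes and 14.5% of those at or above the median level, with PHB1, the prohibitin gene, at 0.76, and CLPB and SPG7 at 0.32 each. The latter 2 lost their calls when arrays were left out, and the count was 1 without control replicate 2, control replicate 3, RKIP shRNA replicate 1 or RKIP shRNA replicate 3.

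Of 15 other measured genes known to be induced by heat shock through HSF1, 2 rose, 1 fell and 12 did not pass, with a median log2 change of 0.09. These counts are near the shares of all genes, 10.0% higher and 10.2% lower. DEDD2 and MRPL18 rose by 0.33 and 0.30, and ATF3, a stress transcription factor, fell by 0.29. Each of these 3 calls was lost in 4 or 5 of the 6 fits that left out 1 array. The count of rises was 0 without control replicate 3 or RKIP shRNA replicate 3 and 1 without control replicate 2, RKIP shRNA replicate 1 or RKIP shRNA replicate 2. With all arrays kept, that count lay between 0 and 5 over the alternatives. The largest change of the list, 0.80 for CLU, did not pass (adjusted p = 0.0586), nor did that of 0.39 for PTGES3 (adjusted p = 0.0508). For both genes the groups did not overlap. CLU and UBB were dim in both groups. Among 10 measured relatives and regulators of HSF1, 2 rose, 0 fell and 8 did not pass, HSF4 and SIRT1 among the latter. Of all genes 10.0% were called higher, 14.5% among those at or above the median level, and 10.2% lower. The median log2 change of this list was 0.02, as for all genes. HSBP1, an HSF1-binding inhibitor, rose by 0.39 (adjusted p = 0.00818) and the segregase gene VCP by 0.65 (adjusted p = 0.00173). Both kept their calls with each array left out.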

How the data were processed

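The deposited table holds 53617 rows of log2 values, 1 column per array, a scale inferred from values between 0.72 and 14.0 and array medians of 4.06 to 4.10. How the authors summarised and normalised these log2 values is not given in the sources used here, nor is a genome build. Per the labels' protocols, 250 ng of total RNA was labelled per array. Rows were named through the platform's annotation (16098 rows with 1 symbol, 37519 without a name here), and all were matched by gene number to RefSeq. Per gene the row with the highest mean over 6 arrays was kept. RKIP shRNA minus control was fitted over all 14884 genes in R 4.3.3 with limma 3.58.1 (lmFit, eBayes, 7.01 total degrees of freedom), and the fit was tested on simulated data. Calls use a Benjamini-Hochberg adjusted p under 0.05, and intervals are 95%. Fold changes are 2 to the power of the log2 change. No batch is in the labels. The genes and lists were chosen with earlier results of these data known. Every gene of the set could be named. Arrays are given in full for called genes, key chaperones and some genes near a call, but not for BAG2 and HSPA2. Per list the called genes are named. Promoters were aligned with Biopython 1.88, with plots by matplotlib 3.10.9. The planned comparison of HSPA1A and HSPA1B proteins was not run. Alternatives covered scaling (quantile, median centring), the prior (trended and robust, or none as an ordinary t statistic), weights per array, a block for the replicate number, the rows tested (dim genes out, all rows, the mean of a gene's rows), a threshold of 0.01, and each array left out.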

Additional observations from a re-analysis of the deposited data

Results flagged for a closer look

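Rows of these genes outside the comparison by gene, because a brighter row of the same gene was kept there, also differed between the groups. The other rows of HSPA1A gave log2 changes of 0.72, 0.72, 0.76 and 0.72, and those of HSPA1B 0.73, 0.73, 0.72 and 0.74, RKIP shRNA minus control, each at a limma adjusted p under 0.05 over all rows. The same rows stand in the report's account of every row of these copies. Of the HSPA1A rows, 2 repeat the 6 values of the kept row exactly, so they add no measurement. The remaining rows may read the same transcripts as the kept ones and are not independent of them.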

How the results depend on the processing

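With all arrays kept, the count of called genes that were higher lay between 7 and 11 over 10 alternatives, where 4.68% to 19.5% of all genes were called higher, and with 1 array left out between 7 and 9, where 6.47% to 8.14% were. The count lower was 0 in each of these fits. The median log2 change of the set stayed between 0.17 and 0.25. The calls that were lost were HSPA14 and HSPA4L, and those gained were BAG2, HSPA4 and HSPA1L. Replicate numbers gave no pairing: same-numbered arrays had deviations from their group means correlated at 0.02, 0.00 and -0.02 over all genes. With the replicate number as a block 7 genes were higher, and HSPA14 and HSPA4L had adjusted p-values of 0.0797 and 0.0771. Changes near 0 turned sign without being called: HSPB3 was at -0.03 with array weights and between -0.07 and 0.16 with 1 array left out, HSPA12A at 0.03 with the mean of its rows and between -0.20 and 0.01, HSPA12B between -0.11 and 0.08, and HSPA6 between -0.06 and 0.01. For these the cause was not tested. Among the wider lists, 7 genes of the list of prefoldin, chaperonin helpers and tubulin cofactors rose as reported. With the block, all rows, an ordinary t statistic or a threshold of 0.01, 3 rose. Of the other HSF1-induced genes 2 rose, and between 0 and 5 over the alternatives; of the HSP90 co-chaperones 2 rose, and 4 with a trended robust prior or without dim genes. The signal over background was unknown, which limits dim genes.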
